A study of Rattus norvegicus with 14 samples.

Results

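The genes described here are 48 rat genes of the cell cycle, 25 of DNA replication and entry into S phase and 23 of mitosis. They were chosen by name, with earlier results of these data known. Of these, 44 had a row among the 16816 of the gene count table, 24 of the S phase genes and 20 of the mitosis genes, while the expression of Tk1, Birc5, Bub1b and Cenpe is not analysed here. The RNA came from PCCL3, a follicular cell line of the rat thyroid. PPFP cells stably express the human PAX8-PPARG fusion protein with a Myc tag, and EV cells carry the empty vector in its place. Both were grown in medium that holds thyrotropin, insulin and hydrocortisone. Each was treated for 16 hours with 1 μM of the PPARG agonist pioglitazone or with its vehicle, DMSO. Each of the 4 groups held 3 libraries, which by the study's methods came from independent experiments. Each transfectant is 1 cell line, and whether it is a clone or a pool is not given in the sources used here, so the fusion protein and any other difference between the 2 lines cannot be told apart.

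PAX8-PPARG joins the DNA binding domain of the thyroid transcription factor PAX8 to the ligand-activated receptor PPARG, and it arises from a chromosome translocation in a subset of follicular thyroid carcinomas. Cells commit to S phase when cyclin E and Cdk2 inactivate the pocket proteins and release E2F factors, which switch on the genes of the replication machinery. The MCM proteins are loaded on origins as the core of the replicative helicase, and Cdc45 and the GINS complex join them when origins fire. Later in the cycle a second set of genes rises, with the B cyclins, Cdk1, the aurora kinases, the spindle checkpoint and the mitotic motors, through CCAAT boxes and an element called the CHR in their promoters. Thyrotropin and insulin drive the proliferation of thyroid follicular cells in culture.

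The promoters of the 2 lists differ in sequence, and 2 of each list are shown because they hold the element of their phase and their genes varied most between libraries among such members. RefSeq promoters of the GRCr8 assembly, which run from 250 bases before to 50 bases after the annotated start, were matched by symbol to 20 of the 25 S phase and 19 of the 23 mitosis genes, which include the 4 genes whose expression is not analysed. Both strands were searched for an E2F site (TTTCCCGC, TTTGGCGC, TTTGCCGC or TTTCGCGC), a CCAAT box (CCAAT) and a CHR (TTTGAA or TTCGAA). The E2F letters were in 11 of 20 S phase promoters (55%) and in 1 of 19 mitosis promoters (5.26%), that of Cdk1, against 2.14% of all 33469 promoters of that length and 2.74% of the 21851 of protein-coding genes. The CHR letters were in 4 S phase promoters (20%) and 13 mitosis promoters (68.4%), against 19.7% of all promoters and 18.5% of those of protein-coding genes. CCAAT was in 14 S phase promoters (70%) and 15 mitosis promoters (78.9%), against 37.5% and 38%. These are matches of letters, which may overlap each other, and not measured binding sites. The 250 bases before the start are printed below, 5′ to 3′ on the strand of the gene, with the E2F letters in capitals for Mcm7 (chr12:22163179-22163428, minus strand) and Gins1 (chr3:160184670-160184919, plus strand) and the CHR letters in capitals for Cdc20 (chr5:137255800-137256049, minus strand) and Ccnb2 (chr8:79981659-79981908, minus strand).
Mcm7: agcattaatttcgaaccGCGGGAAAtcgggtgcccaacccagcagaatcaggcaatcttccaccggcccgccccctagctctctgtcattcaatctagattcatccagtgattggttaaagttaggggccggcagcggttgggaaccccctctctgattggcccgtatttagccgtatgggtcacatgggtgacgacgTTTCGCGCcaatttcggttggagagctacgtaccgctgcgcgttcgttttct
Gins1: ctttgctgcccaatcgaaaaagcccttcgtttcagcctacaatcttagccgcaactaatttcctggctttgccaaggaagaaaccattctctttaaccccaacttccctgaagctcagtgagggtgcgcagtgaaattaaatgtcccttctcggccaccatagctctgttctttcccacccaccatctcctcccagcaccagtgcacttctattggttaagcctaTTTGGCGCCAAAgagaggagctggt
Cdc20: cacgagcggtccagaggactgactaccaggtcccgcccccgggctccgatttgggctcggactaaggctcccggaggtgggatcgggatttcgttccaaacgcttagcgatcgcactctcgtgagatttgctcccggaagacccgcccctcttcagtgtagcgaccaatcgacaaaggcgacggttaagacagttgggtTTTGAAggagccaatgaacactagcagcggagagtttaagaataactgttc
Ccnb2: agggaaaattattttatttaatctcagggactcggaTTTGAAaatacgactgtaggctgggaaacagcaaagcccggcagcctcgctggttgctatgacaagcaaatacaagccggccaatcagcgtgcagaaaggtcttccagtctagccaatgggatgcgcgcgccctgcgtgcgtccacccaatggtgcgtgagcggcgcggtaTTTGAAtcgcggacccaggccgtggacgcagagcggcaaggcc

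In Mcm7 the E2F matches began 233 and 52 bases before the start, the first of them read on the opposite strand. In Gins1, 2 E2F matches on opposite strands overlapped in the run of capitals that began 25 bases before the start. Mcm7 also held a CHR match at 241 and CCAAT boxes at 140, 94 and 45 bases before the start. Gins1 also held CCAAT boxes at 241 and 39 bases before it. The CHR match of Cdc20 began 51 bases before the start, between CCAAT boxes at 86 and 41. Ccnb2 had CHR matches at 214 and 43, and 3 CCAAT boxes at 134, 101 and 68 bases before the start.

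Libraries held 23.7 to 35.2 M counts on genes (median 28.6 M), and the lowest count of a member in any library was 226, of Cdc25c, so every member passed the filter on low counts in every comparison. All 9 thyroid markers read, among them Tg, Tshr and Slc5a5, were detected, with summed levels of 10570 to 14240 CPM (counts scaled to a common library total) in EV cells without and 11270 to 14900 with pioglitazone, and of 13950 to 14590 in PPFP cells without and 10310 to 10590 with pioglitazone. Tg makes up most of these sums, and single markers differed between the lines: without pioglitazone Foxe1 was at 839 to 897 CPM in EV and 123 to 151 CPM in PPFP libraries, Slc5a5 at 1076 to 1147 and 303 to 364 CPM, and Duox2 at 16.8 to 21.4 and 85.3 to 94.1 CPM. Of the markers of other cells, 2 of 5 C cell genes were at 0 in every library and all were under 1 CPM. The fibroblast genes Col3a1, Dcn and Lum (3 of 8) were at 0 and the 8 summed to 20.4 to 34.5 CPM. Most of that sum was Pdgfra, which was detected in every library at 19.0 to 32.1 CPM. The macrophage genes Itgam and C1qa (2 of 7) were at 0 and the 7 summed to 0.407 to 1.51 CPM. A library pair stood apart before any comparison. PPFP cells with pioglitazone replicates 2 and 3 differed by a chi-square of 1.67 per degree of freedom over genes, with 10.2% of genes at a p under 0.05, against 17.2 to 109 and 23.6% to 67% in the 11 other pairs of replicates. The difference was above sampling noise and both were kept, but whether they are separate experiments was not tested. The counts of called members that rest on them are also given with the 2 summed into 1 library or with 1 of them left out.

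The members moved together between replicates of 1 group, by more than other genes. The level of a list in a library was taken as the median, over its members, of log2 CPM minus the mean of that member over the 12 libraries. For the S phase members it was -0.10, -0.73 and 0.23 in EV replicates 1, 2 and 3 without pioglitazone and -0.23, -1.06 and 0.21 with it. In PPFP cells it was 0.66, -0.02 and 0.01 without and 0.74, 0.14 and 0.12 with pioglitazone. EV replicate 2 was therefore the lowest and PPFP replicate 1 the highest library under both treatments.

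The mitosis members gave the same order of libraries within each group. Their level was -0.21, -0.68 and 0.49 in EV replicates 1, 2 and 3 without and -0.18, -1.11 and 0.42 with pioglitazone. It was 0.61, -0.16 and -0.12 in PPFP cells without and 0.73, 0.14 and 0.11 with pioglitazone. The list levels spanned 1.96-fold (S phase) and 2.24-fold (mitosis) within EV cells without pioglitazone and 2.41-fold and 2.88-fold with it, against 1.60-fold and 1.70-fold in PPFP cells without and 1.54-fold and 1.53-fold with it. The plot of list levels shows that the EV libraries span more than the gap between the group means.

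**Figure D1:**
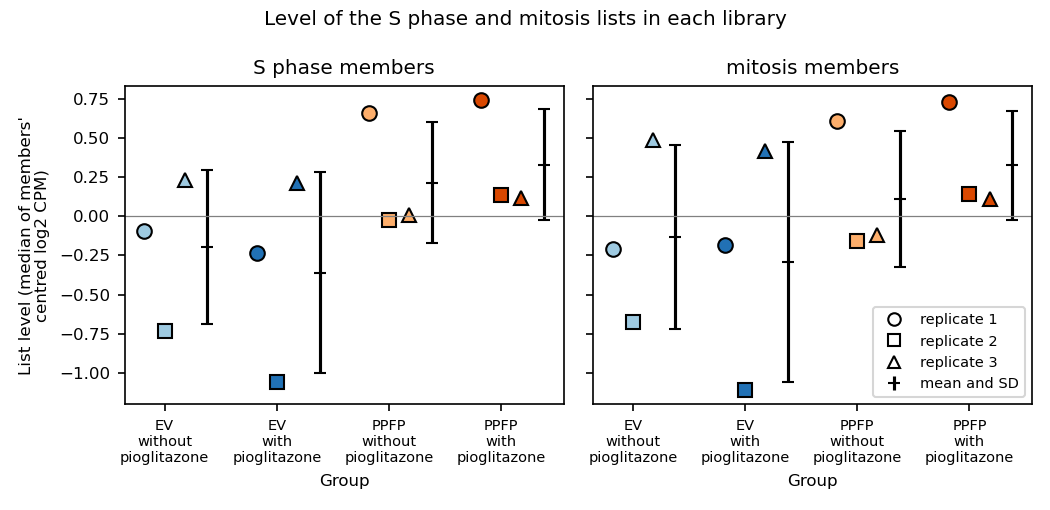
Level of the 24 S phase members (left) and the 20 mitosis members (right) in each of 12 libraries, as the median over members of log2 CPM centred on each member's mean, with circles, squares and triangles for replicates 1, 2 and 3 and bars for the mean and SD of a group (n = 3). PPFP replicate 1 is the highest library of its group and EV replicate 2 the lowest of its group in both panels and under both treatments.

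The pattern was shared by nearly every member. In both EV groups replicate 3 was the highest and replicate 2 the lowest library for 23 of 24 S phase members and for 20 of 20 mitosis members. Gins2, a subunit of the GINS complex, was the exception. Among all genes replicate 3 was the highest of its group for 34.7% without and 34% with pioglitazone, and replicate 2 the lowest for 36% and 34.7%. In both PPFP groups replicate 1 was the highest for 23 of 24 S phase members and 20 of 20 mitosis members, against 43.3% and 45.6% of all genes. The exception was Ccne1, which encodes cyclin E1.

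The SD of log2 CPM between replicates of a group had a median over the S phase members of 0.47 in EV cells without and 0.60 with pioglitazone, and of 0.38 in PPFP cells without and 0.32 with it. For the mitosis members it was 0.56 and 0.73 in EV cells and 0.49 and 0.38 in PPFP cells. Over 10480 genes it was 0.15 and 0.16 in EV cells and 0.13 and 0.12 in PPFP cells. Above the upper decile of all genes by this SD lay 14 of 24 S phase and 16 of 20 mitosis members in EV cells without and 15 and 19 with pioglitazone, and 9 and 14 in PPFP cells without and 9 and 10 with it. In these bulk libraries, more cells in a phase and more RNA of its genes in each cell cannot be told apart.

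**Figure D2:**
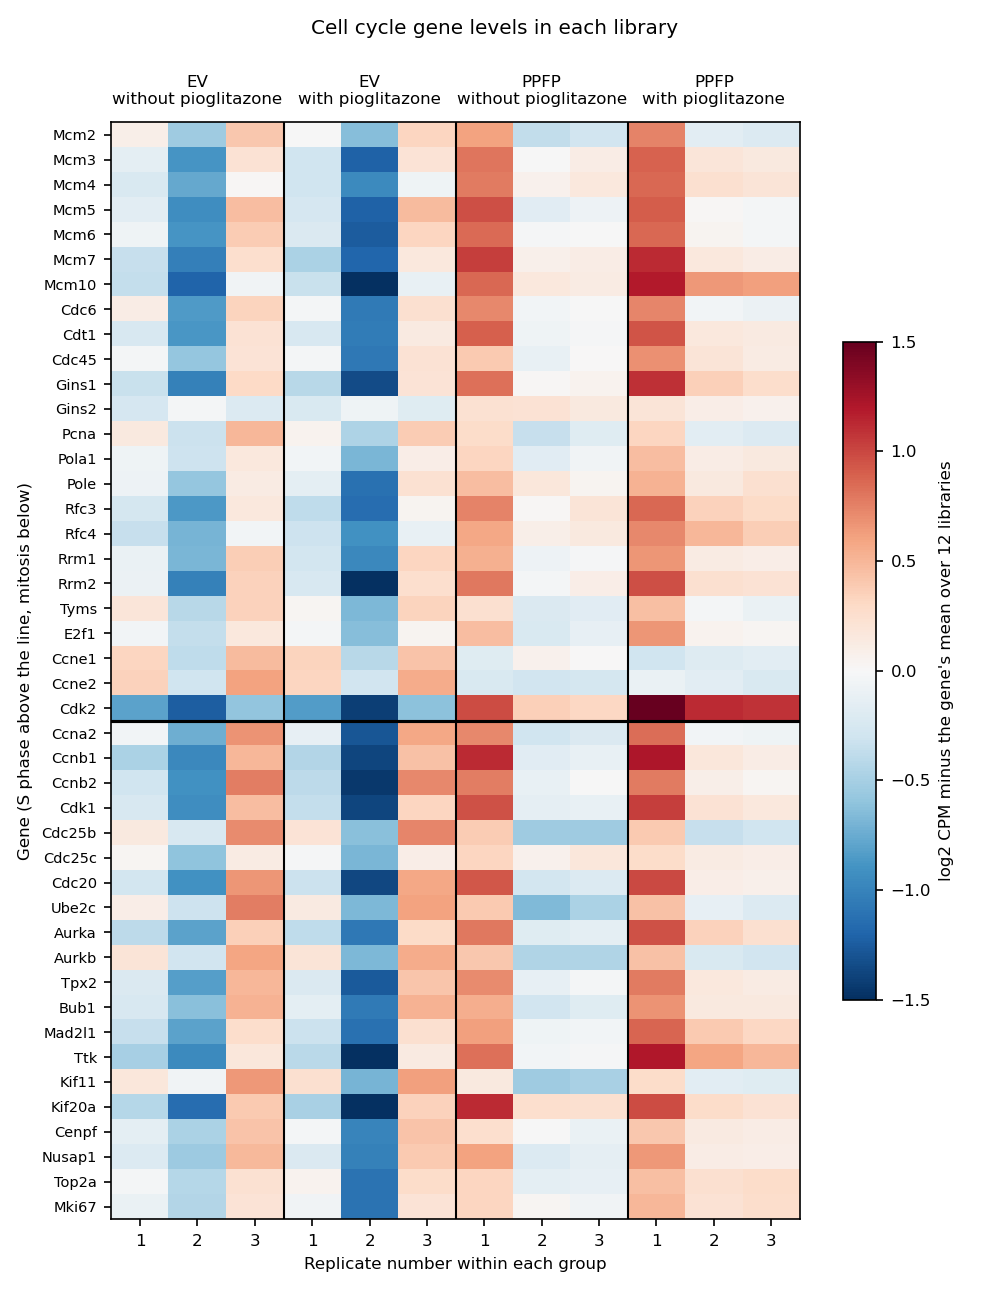
Log2 CPM of the 44 members (rows) in 12 libraries (columns), minus the mean of each member over the libraries, with red for higher and blue for lower levels and colours that saturate at 1.5 on either side. Columns of EV replicate 2 are blue and columns of PPFP replicate 1 are red over nearly all rows, and Cdk2 is the row in which all 6 EV libraries lie below all 6 PPFP libraries by the widest margin.

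PPFP cells were first compared with EV cells without pioglitazone, which asks how the fusion protein line differs in the absence of added ligand. In all, 4 S phase members were higher in PPFP cells and no mitosis member was called. Cdk2, the kinase that drives entry into S phase, was 2.71-fold higher, Mcm10 1.85-fold, Rfc4 1.55-fold and Gins2 1.28-fold. Calls required an adjusted p under 0.05 (Benjamini-Hochberg, over all genes tested) in the quasi-likelihood test of edgeR, which also gave the adjusted p values below except where a block is stated. The 4 calls among 44 members (9.09%) compare with 45.2% of all 10264 genes called, and with 22% called higher in PPFP cells. Only Cdk2 among the members was both called and changed over 2-fold, against 14.6% of all genes. The median log2 fold change was 0.41 over the S phase members and 0.22 over the mitosis members, with 0.0016 over all genes, and 36 of 44 members were on the higher side in PPFP cells. Leaving out 1 library gave medians of 0.155 (without PPFP replicate 1) to 0.66 (without EV replicate 3) for S phase, and for mitosis the median fell below 0 without EV replicate 2 (-0.03) or without PPFP replicate 1 (-0.04) and reached 0.50 without EV replicate 3.

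By role, the 6 subunits of the helicase core of the MCM family had log2 fold changes of 0.02 to 0.76 with none called. The 6 genes of origin licensing and firing (Cdc6, Cdt1, Cdc45, Mcm10, Gins1 and Gins2) had 0.21 to 0.89 with 2 called. The 5 fork enzymes (Pcna, the polymerase subunits Pola1 and Pole, and the clamp loaders Rfc3 and Rfc4) had -0.20 to 0.63 with 1 called. The 3 genes of nucleotide supply, the ribonucleotide reductase subunits Rrm1 and Rrm2 and the thymidylate synthase Tyms, had -0.11 to 0.49 with none called. Both E cyclins lay on the lower side while their partner Cdk2 was higher.

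Cdk2 was at 98.8, 73.1 and 115 CPM in EV cells and 341, 222 and 214 CPM in PPFP cells in replicates 1, 2 and 3, with means of 95.5 ± 21.0 and 259 ± 70.9 (SD, n = 3). The groups did not overlap, and the lowest PPFP library was well above the highest EV library. The log2 fold change was 1.44 (SE 0.22, adjusted p = 0.00159), and the call held under 14 of 14 alternatives, with adjusted p from 3.87e-09 to 0.00953.

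Mcm10, an initiation factor that binds the MCM helicase, was at 26.8, 14.9 and 33.0 CPM in EV cells and 62.3, 38.4 and 37.5 CPM in PPFP cells. All PPFP libraries were above all EV libraries, but PPFP replicates 2 and 3 were near EV replicate 3. Its log2 fold change was 0.89 (SE 0.31, adjusted p = 0.0488), and without PPFP replicate 1 it was 0.62 with an adjusted p of 0.142. The call held under 6 of 14 alternatives.

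Rfc4, a subunit of the complex that loads the PCNA clamp, was at 59.4, 46.7 and 73.9 CPM in EV cells and 114, 80.6 and 83.9 CPM in PPFP cells. The groups did not overlap, and PPFP replicates 2 and 3 lay just above EV replicate 3. Its log2 fold change was 0.63 (SE 0.19, adjusted p = 0.0309), and without EV replicate 1 the adjusted p was 0.0917.

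Gins2 was at 94.1, 109 and 97.2 CPM in EV cells and 131, 130.2 and 124 CPM in PPFP cells, with little spread between replicates and no overlap between the lines. Its log2 fold change was 0.36 (SE 0.08, adjusted p = 0.0102), and without EV replicate 1 the adjusted p was 0.053.

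Mcm4 did not overlap between the groups either, at 287, 197 and 339.8 CPM in EV cells and 578, 351 and 375 CPM in PPFP cells, and had a log2 fold change of 0.66 (SE 0.25, adjusted p = 0.0600). Thus 5 of 44 members were higher in every PPFP library than in any EV library, all of S phase, where 27.6% of all genes were. At the other end, Ccne2, which encodes cyclin E2, was at 36.5, 23.3 and 43.5 CPM in EV cells and 24.5, 23.4 and 23.8 CPM in PPFP cells. PPFP libraries were level with EV replicate 2 and under the other EV libraries, and the log2 fold change was -0.53 (SE 0.21, adjusted p = 0.0732). It was called lower under 4 of 14 alternatives, with an adjusted p of 0.0026 without EV replicate 2.

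None of the 20 mitosis members was called, with 0 at an unadjusted p under 0.05 in edgeR's quasi-likelihood test, against 5406 of all 10264 genes. By edgeR's exact test and by DESeq2 0 were called, with 46.4% and 48.3% of all genes. The log2 fold changes of the mitosis members ran from that of Kif11 to that of Kif20a, both of them kinesin motors. Kif20a, which acts in cytokinesis, was at 115, 69.6 and 203 CPM in EV cells and 334, 183 and 183 CPM in PPFP cells. EV replicate 3 was above PPFP replicates 2 and 3, and the log2 fold change was 0.86 (SE 0.40, adjusted p = 0.116). Kif11, which separates the spindle poles, was at 164, 141 and 230 CPM in EV cells and 162, 101 and 105 CPM in PPFP cells. PPFP replicate 1 lay among the EV libraries and the other PPFP libraries below them all, and its log2 fold change was -0.54 (SE 0.23, adjusted p = 0.0976).

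Cyclin B1 and its kinase followed the order of the libraries. Ccnb1 was at 117, 82.9 and 229 CPM in EV cells and 354, 144 and 150.2 CPM in PPFP cells, and Cdk1 at 122, 75.0 and 198 CPM in EV cells and 278, 130.2 and 133 CPM in PPFP cells. For both genes PPFP replicate 1 was the highest and EV replicate 3 was above PPFP replicates 2 and 3. The log2 fold changes were 0.60 (SE 0.45, adjusted p = 0.319) for Ccnb1 and 0.45 (SE 0.40, adjusted p = 0.392) for Cdk1.

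These counts depended on single libraries. Without EV replicate 3, 9 S phase and 3 mitosis members were called, all higher in PPFP cells, and without EV replicate 1 only 1 S phase member. Without PPFP replicate 1 there were 2 S phase members on the higher side and 1 mitosis member, Kif11, on the lower side (adjusted p = 0.0273), and without PPFP replicate 3 there were 2 S phase members. The shares of all genes called were 46.8%, 34.1%, 43.5% and 33.2% in these fits. Without EV replicate 2, 2 S phase members were called higher and 2 lower, with 41% of all genes.

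The same comparison with pioglitazone in both lines gave higher values for most members. Higher in PPFP cells were 6 S phase members (Cdk2, Rfc4, Gins2, Mcm10, Mcm4 and Rfc3) and 1 mitosis member, the spindle checkpoint kinase Ttk. Cdk2 was 4.73-fold higher, Mcm10 2.62-fold and Ttk 2.39-fold, and these 3 were the members over 2-fold. The 7 calls of 44 members (15.9%) compare with 52.7% of 10291 genes called, 26.3% called higher and 19.7% called with a change over 2-fold. Other tests called more members, 9 of S phase and 3 of mitosis by edgeR's exact test and 10 and 3 by DESeq2, all higher, with 53.2% and 55.5% of all genes. The median log2 fold change was 0.56 for the S phase and 0.48 for the mitosis members, with 0.0121 over all genes. Leaving out 1 library gave medians of 0.27 to 0.94 for S phase and 0.17 to 0.89 for mitosis, lowest without EV replicate 2 and highest without EV replicate 3. Scaling by library size alone moved the median of all genes to -0.12. This comparison shares no library with the one without pioglitazone, but the same 2 lines are compared, so the 2 are not independent tests of the fusion protein.

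Cdk2 was at 96.7, 64.9 and 113 CPM in EV cells and 548, 374 and 366 CPM in PPFP cells, means 91.4 ± 24.4 and 429.7 ± 103 (SD, n = 3). The log2 fold change was 2.24 (SE 0.25, adjusted p = 2.86e-04), and the call held under 15 of 15 alternatives. Mcm10 was at 27.3, 11.8 and 31.7 CPM in EV cells and 78.3, 54.0 and 52.5 CPM in PPFP cells. Both genes separated the lines more widely than without pioglitazone, and for Mcm10 the log2 fold change was 1.39 (SE 0.35, adjusted p = 0.0137) with the call held under 15 of 15 alternatives.

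Ttk was at 57.2, 26.3 and 83.0 CPM in EV cells and 174, 114 and 107 CPM in PPFP cells, so that EV replicate 3 came closest to the PPFP libraries. Its log2 fold change was 1.26 (SE 0.40, adjusted p = 0.0325), and without PPFP replicate 1 the adjusted p was 0.0985. Rfc4 was at 61.0, 40.5 and 70.3 CPM in EV cells and 125, 107 and 98.0 CPM in PPFP cells, with a log2 fold change of 0.95 (SE 0.21, adjusted p = 0.00663) that was called under 15 of 15 alternatives.

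Rfc3, another clamp loader subunit, was at 34.3, 20.1 and 45.8 CPM in EV cells and 80.9, 56.6 and 54.4 CPM in PPFP cells, with a log2 fold change of 0.95 (SE 0.30, adjusted p = 0.0325). Mcm4 was at 273, 173 and 320.1 CPM in EV cells and 609.8, 396 and 384 CPM in PPFP cells, with a log2 fold change of 0.87 (SE 0.27, adjusted p = 0.0283), and without PPFP replicate 1 its adjusted p was 0.0846. In both, EV replicate 3 lay nearest to PPFP replicates 2 and 3. Gins2 was at 95.3, 107 and 98.3 CPM in EV cells and 127, 119 and 117 CPM in PPFP cells, with a log2 fold change of 0.29 (SE 0.07, adjusted p = 0.0128). This call was lost under library-size scaling (adjusted p = 0.1004) and with the replicate block (adjusted p = 0.0589), and kept under 9 of 15 alternatives.

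In all, 8 S phase members and 4 mitosis members (Cdc25c, Mad2l1, Ttk and Mki67) were higher in every PPFP library than in any EV library, against 31% of all genes. The lowest values were again those of Ccne2, -0.39 (SE 0.21, adjusted p = 0.149), and, in mitosis, of the phosphatase gene Cdc25b, -0.24 (SE 0.35, adjusted p = 0.594). Ccne2 was at 35.8, 23.5 and 42.2 CPM in EV cells and 26.7, 25.6 and 24.4 CPM in PPFP cells, and Cdc25b at 74.5, 42.1 and 107 CPM in EV cells and 85.1, 51.2 and 52.9 CPM in PPFP cells. In both genes EV replicate 2 was below every PPFP library, and the ranges of the lines overlapped. Ccnb1 had a log2 fold change of 0.88 (SE 0.48, adjusted p = 0.165) and Cdk1 of 0.84 (SE 0.43, adjusted p = 0.138).

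Single libraries moved these counts as well. Without EV replicate 3, 13 S phase and 11 mitosis members were called, with 55.3% of all genes, and without EV replicate 1 there were 3 and 0, with 41.3%. The mitosis count was 0 without PPFP replicate 1 or without PPFP replicate 2, where 48.7% and 41.5% of all genes were called. With PPFP replicates 2 and 3 summed into 1 library, 4 S phase and 1 mitosis member passed the threshold, with 42.4% of all genes.

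**Figure D3:**
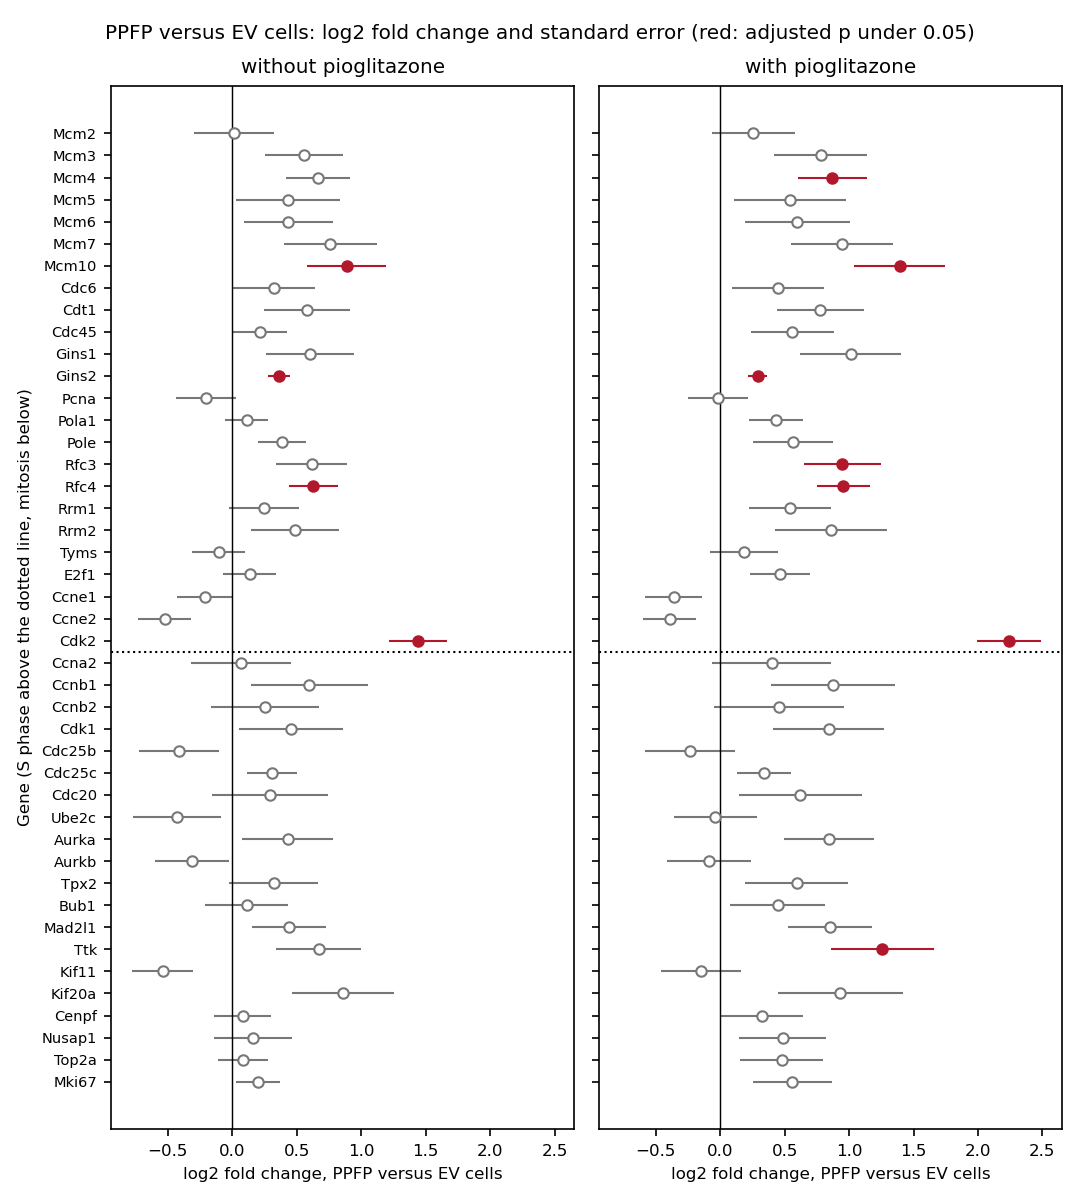
Log2 fold change of PPFP versus EV cells for each of the 44 members, without (left) and with pioglitazone (right), with the standard error as a bar and a filled red point where the adjusted p is under 0.05. The 4 called members on the left and the 7 on the right all lie on the higher side, Cdk2 farthest out at 1.44 and 2.24.

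Since nearly all members followed the general level of their list, each member was also set against that level, as log2 CPM minus the median level of the other members of its list in the same library. The scale is centred on the list, so that members fall on both sides of it by construction, and a member on its lower side need not be lower in CPM. Without pioglitazone 6 S phase members were higher and 7 lower in every PPFP library than in any EV library of 24, where 32.8% of all genes set against the S phase level separated in either direction. For mitosis it was 6 higher and 6 lower of 20, against 17.2% of all genes. With pioglitazone it was 8 and 6 of 24 (45.7% of all genes) and 6 and 6 of 20 (32.1%). The subtraction takes the shared replicate spread out of the members and adds it to genes that do not follow the list. The shares of all genes are therefore not a like comparison for the members.

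Separated in the same direction under both treatments, on the higher side of their list, were the S phase members Mcm3, Mcm7, Mcm10, Rfc3 and Cdk2 and the mitosis members Cdk1, Aurka, Tpx2, Mad2l1, Ttk and Kif20a. On the lower side of it were Mcm2, Pcna, Tyms, Ccne1 and Ccne2 and, in mitosis, Cdc25b, Ube2c, Aurkb, Bub1 and Kif11. The differences of the relative level were 1.06 without and 1.57 with pioglitazone for Cdk2, and -0.93 without and -1.07 with pioglitazone for Ccne2. Not set against the list, the log2 fold changes between the lines were 0.43 without and 0.84 with pioglitazone for Aurka, which acts at the spindle poles, and -0.32 and -0.08 for Aurkb, of the chromosomal passenger complex. Those of Mcm2 were 0.02 and 0.26 and those of Mcm7 0.76 and 0.95, so both of these subunits had positive values, Mcm2 below and Mcm7 above the level of their list. None of these 4 genes was called in either comparison without a replicate block. The relative levels are descriptions with no test.

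A further 4 members show the range of behaviour. E2f1, the S phase transcription factor, was at 34.6, 27.9 and 39.8 CPM in EV cells without pioglitazone, 35.0, 23.0 and 36.7 CPM in EV cells with it, 49.1, 30.3 and 32.7 CPM in PPFP cells without it and 56.3, 37.0 and 36.4 CPM in PPFP cells with it. Mcm2 was at 193, 125 and 239 CPM in EV cells without pioglitazone, 180.1, 116 and 227 CPM in EV cells with it, 274, 140 and 148 CPM in PPFP cells without it and 303, 161 and 157 CPM in PPFP cells with it. For both, PPFP replicate 1 was the highest library of all and the other PPFP libraries lay within the range of the 6 EV libraries. Top2a, the topoisomerase that untangles chromosomes, was at 633, 476 and 756 CPM in EV cells without pioglitazone, 668, 298 and 776 CPM in EV cells with it, 801, 580.4 and 592 CPM in PPFP cells without it and 879, 757 and 775 CPM in PPFP cells with it. Mki67, which encodes the proliferation marker Ki-67, was at 209.6, 166 and 260.3 CPM in EV cells without pioglitazone, 217, 104 and 259 CPM in EV cells with it, 281, 230.2 and 217 CPM in PPFP cells without it and 318, 261 and 271 CPM in PPFP cells with it. With pioglitazone all 3 PPFP libraries of Mki67 were above the EV libraries, whereas for Top2a PPFP replicates 2 and 3 were just below EV replicate 3. None of the 4 genes was called in either comparison of the lines.

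**Figure D4:**
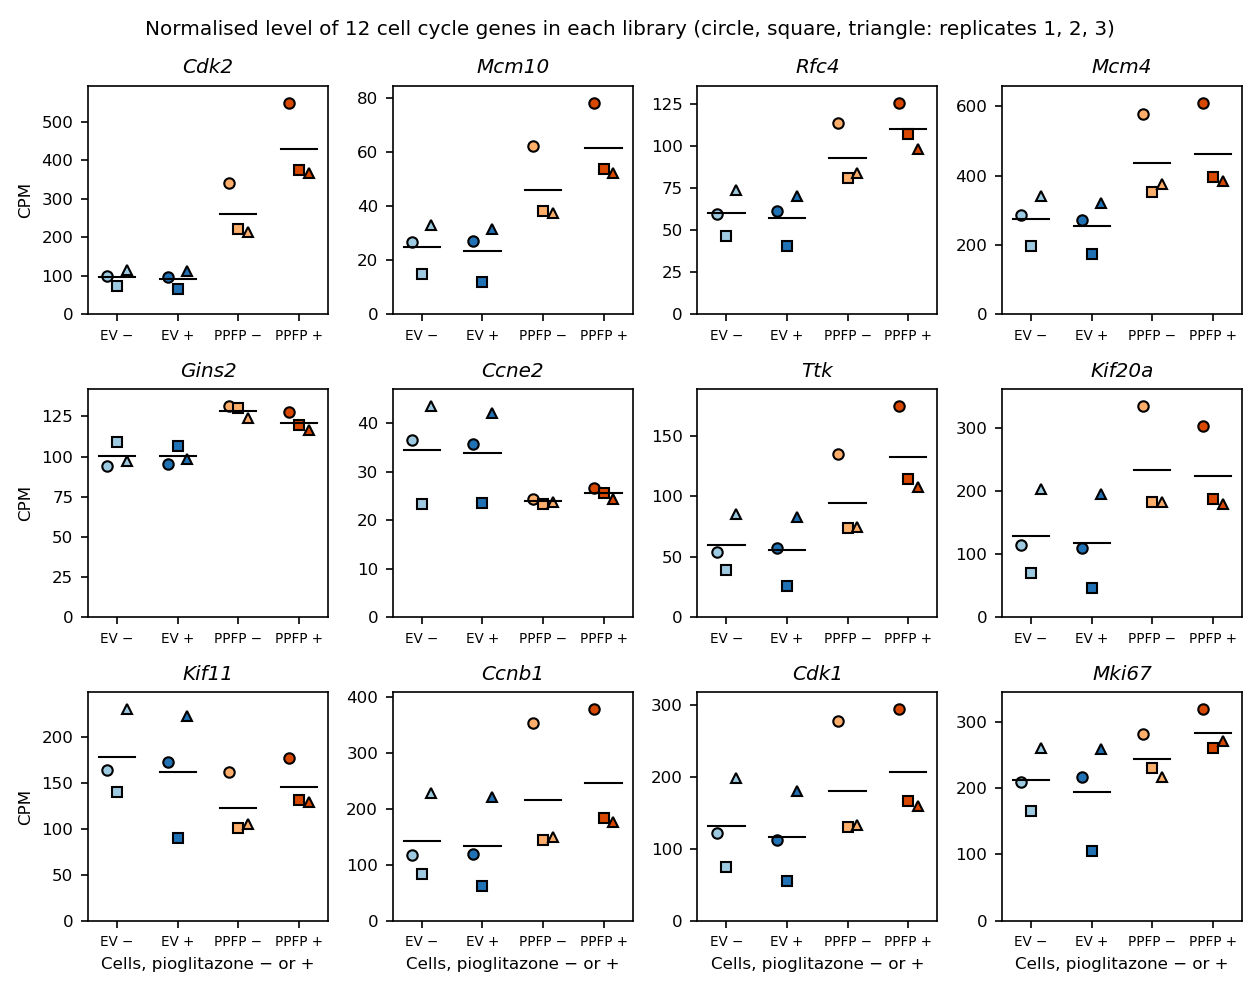
CPM of 12 members in each library, with − and + for without and with pioglitazone, circles, squares and triangles for replicates 1, 2 and 3, and a line for the mean of a group (n = 3). Cdk2 separates the lines in every library, Gins2 does so with little spread, and in Ccnb1 and Cdk1 the triangle of EV replicate 3 lies above the squares and triangles of PPFP cells without pioglitazone.

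Cdk2 overlaps the end of another gene, and the neighbours were therefore read in the same way. In the RefSeq annotation of GRCr8, Pmel overlaps Cdk2 by a few bases and Rab5b and Suox follow on the other side. Whether the counts used the strand is not given in the sources used here. Pmel was at 133, 180.3 and 198 CPM in EV cells and 115, 131 and 135 CPM in PPFP cells without pioglitazone, with a log2 fold change of -0.42 (SE 0.15, adjusted p = 0.0529), opposite in sign to that of Cdk2. Rab5b was at 264, 243 and 264 CPM in EV cells and 539.6, 519.9 and 533 CPM in PPFP cells without pioglitazone, 1.05 (SE 0.08, adjusted p = 4.34e-05), and Suox changed by 0.77 (SE 0.17, adjusted p = 0.00875). With pioglitazone in both lines Rab5b had 1.06 (adjusted p = 3.96e-05), Suox 0.69 (adjusted p = 0.0133) and Pmel 0.08 (adjusted p = 0.704). The neighbours on 1 side were thus higher in PPFP cells too.

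The response of PPFP cells to pioglitazone was small, with log2 fold changes above 0 for 39 of 44 members and below 0 for Cdc6, Gins2, Ccne1, Cdc25c and Kif20a. No member was called, where 14.8% of 10064 genes were. In edgeR's quasi-likelihood test 1 S phase member (Cdk2) and 0 mitosis members had an unadjusted p under 0.05, against 2900 of all genes. By other tests, edgeR's exact test and DESeq2 each called 1 S phase member and 0 mitosis members, with 16.2% and 20% of all genes. The median log2 fold change was 0.14 for the S phase and 0.19 for the mitosis members, with 0.01 over all genes. Leaving out 1 library gave medians of -0.08 to 0.39 for S phase and -0.05 to 0.49 for mitosis, and both fell below 0 without PPFP replicate 1 with pioglitazone. With PPFP replicates 2 and 3 with pioglitazone summed, 0 members and 6.98% of all genes were called, and the medians were 0.24 and 0.32. Same-numbered libraries with and without pioglitazone deviated together in each line, so the response was also fitted with the replicate number as a block. With the block 33 of 44 members were called, 32 of them higher: 15 S phase members rose and 1 fell, and 17 mitosis members rose. By that fit 51.6% of all genes were called and 27.7% were called higher. The block count for S phase was 17, 11 and 14, and for mitosis 18, 16 and 15, with number 1, 2 or 3 left out of both groups, where 47.6%, 46% and 41.3% of all genes were called.

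Cdk2 rose most. Its CPM with pioglitazone exceeded that without it by 0.69, 0.76 and 0.77 on the log2 scale in pairs 1, 2 and 3, and its log2 fold change was 0.74 (SE 0.23, adjusted p = 0.0837) without and 0.75 (SE 0.03, adjusted p = 6.61e-15) with the block. Rab5b and Suox, its neighbours, had -0.04 (adjusted p = 0.565) and -0.09 (adjusted p = 0.401) without the block, and Pmel on the other side rose by 0.46 (adjusted p = 0.0246). Ttk rose by 0.51 (SE 0.05, block adjusted p = 1.67e-09), and without the block had 0.49 (SE 0.29, adjusted p = 0.327). Its pairs differed by 0.37, 0.64 and 0.52. Mcm10 rose by 0.44 (SE 0.05, block adjusted p = 7.54e-08), with pairs of 0.33, 0.49 and 0.48.

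Other risers in the blocked fit belonged to each mitotic role: the kinase Aurka at 0.36 (SE 0.05, adjusted p = 2.20e-06), the checkpoint protein Mad2l1 at 0.36 (SE 0.05, adjusted p = 6.59e-07) and Top2a at 0.31 (SE 0.04, adjusted p = 3.00e-06). Ccnb1 rose by 0.23 (SE 0.04, adjusted p = 7.69e-05) and Cdk1 by 0.24 (SE 0.04, adjusted p = 7.74e-05), whereas without the block they had 0.19 (SE 0.45, adjusted p = 0.833) and 0.20 (SE 0.37, adjusted p = 0.773). Of the helicase core 3 of 6 subunits rose, by 0.15 at most. Ccne1 was the member that fell, by 0.17 (SE 0.07, adjusted p = 0.0320) with and -0.17 (adjusted p = 0.298) without the block, in 3 of 3 pairs (-0.12, -0.25 and -0.16). The blocked call of Ccne1 was lost with number 2 or number 3 left out of both groups. Kif20a, with -0.04 (SE 0.04, adjusted p = 0.405), and Cdc25c, with -0.01 (SE 0.07, adjusted p = 0.944), were the mitosis members with values below 0.

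Counted by pairs, 34 of 44 members were higher with pioglitazone in 3 of 3 pairs, 16 of S phase and 18 of mitosis, and 2 (Gins2 and Ccne1) were lower in 3 of 3. Over all genes 35.5% were higher and 34.2% lower in 3 of 3 pairs. The S phase level rose within pairs 1, 2 and 3 by 5.67%, 11.4% and 8.04%, and the mitosis level by 8.59%, 23.1% and 17.2%. Each of these changes is smaller than the span of the list level between the 3 replicates.

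In EV cells no member was called, 0 had an unadjusted p under 0.05 in edgeR's quasi-likelihood test and 0 were called by the exact test and by DESeq2, and the share over all 10146 genes was 0% (16 genes at an unadjusted p under 0.05). All 44 members had log2 fold changes below 0, with medians of -0.11 for both lists and -0.0018 over all genes. Since the members moved together between libraries, their shared sign is not a set of independent observations. Leaving out 1 library gave medians of -0.37 to 0.16 for S phase and -0.51 to 0.27 for mitosis, above 0 without EV replicate 3 without pioglitazone or EV replicate 2 with it. With the block again 0 members were called, 0.00986% of all genes (1 gene) were called, and 19 of 44 members had an unadjusted p under 0.05, against 5.96% of all genes. By pairs, 22 of 44 members were lower in 3 of 3 and 0 higher in 3 of 3, against 14.6% and 13.5% of all genes. The S phase level changed by -9.15%, -20.1% and -1.5% in pairs 1, 2 and 3, and the mitosis level by 1.73%, -25.9% and -4.75%. Pair 2 thus carried most of the fall: in it 23 of 24 S phase and 20 of 20 mitosis members were lower, whereas 11 of 20 mitosis members were higher in pair 1.

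The members at the ends of the EV response were Rrm2, the regulated subunit of ribonucleotide reductase, with -0.18 (SE 0.50, adjusted p = 1.000) and pairs of -0.15, -0.54 and -0.09, and Gins2 with -0.00 (SE 0.09, adjusted p = 1.000). In mitosis they were Cdk1, with -0.19 (SE 0.49, adjusted p = 1.000) and pairs of -0.12, -0.44 and -0.14, and Cdc25c, with -0.04 (SE 0.27, adjusted p = 1.000). Ccnb1 had -0.10 (SE 0.53, adjusted p = 1.000) and pairs of 0.03, -0.41 and -0.06. Pair 2 held the largest fall in Rrm2, Cdk1 and Ccnb1.

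**Figure D5:**
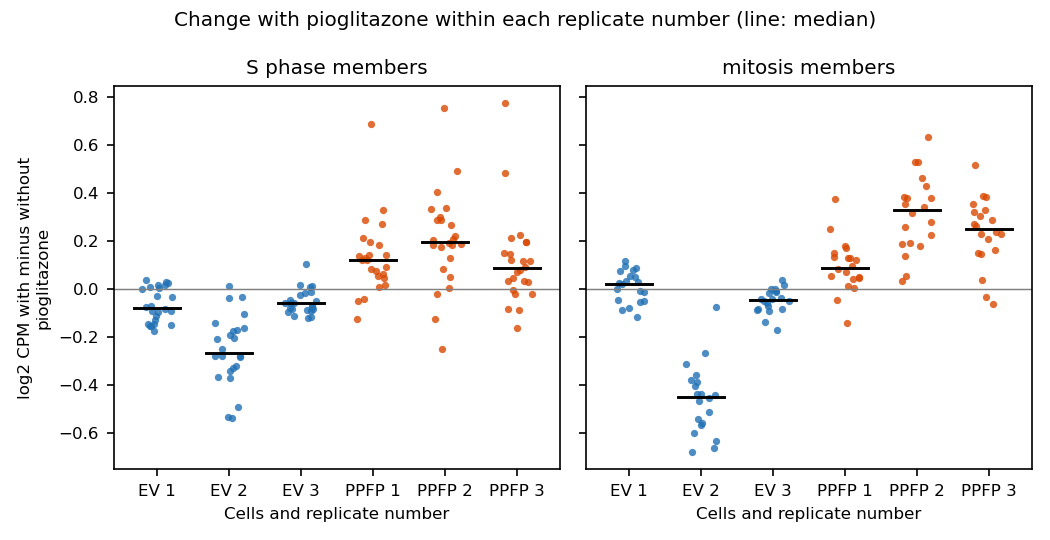
Log2 CPM with minus without pioglitazone within each replicate number for S phase members (left, 24 points a column) and mitosis members (right, 20 points a column), in EV cells (blue) and PPFP cells (orange), with a line at the median. In PPFP cells the medians of all 3 pairs are above 0 in both panels, and in EV cells the column of replicate 2 lies lowest, at medians of -0.27 and -0.45.

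The difference between the 2 responses was tested as an interaction over the 12 libraries. No member was called, where 2.64% of 10482 genes were. In edgeR's quasi-likelihood test 0 members had an unadjusted p under 0.05, against 1389 of all genes, and DESeq2 called 0 members and 5.73% of all genes. With the replicate number as a block within each line 34 members were called, 18 of S phase and 16 of mitosis, all with the more positive response in PPFP cells, against 34.3% of all genes called and 17.2% called in that direction. Cdk2 had the widest difference, 0.81 (SE 0.05, adjusted p = 8.92e-08), followed in mitosis by Ttk with 0.64 (SE 0.12, adjusted p = 0.00103). Gins2, with -0.09 (SE 0.05, adjusted p = 0.176), and Ccne1, with -0.16 (SE 0.07, adjusted p = 0.124), were on the other side and not called. Without EV pair 2, 17 S phase and 15 mitosis members were called, with 32.8% of all genes, and the differences were 0.77 (adjusted p = 2.03e-08) for Cdk2 and 0.48 (adjusted p = 1.53e-04) for Ttk. Leaving out PPFP pair 2 lowered the counts to 13 and 7, with 26.1% of all genes, and leaving out PPFP pair 3 to 16 and 10, with 27.6%. With PPFP replicates 2 and 3 with pioglitazone summed and no block, 0 members and 1.42% of all genes were called.

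Wider lists of cell cycle genes, chosen by name apart from the members but with earlier results of these data known, were counted in the same fits. Of 39 other S phase genes tested, 4 were called higher and 4 lower in PPFP cells without pioglitazone, and 6 and 4 with it. Of 45 other mitosis genes 3 were called higher and 0 lower without and 6 and 0 with pioglitazone, and of 10 E2F and pocket protein genes 0 and 1, then 2 and 2. Over all genes 45.2% were called and 22% called higher without pioglitazone, and 52.7% and 26.3% with it. These counts moved with 1 library and with the test. Leaving out 1 library gave 1 to 9 other S phase and 2 to 16 other mitosis genes called higher without pioglitazone, and 4 to 17 and 3 to 28 with it, the most in each case without EV replicate 3, where 22.8% and 26.7% of all genes were called higher. With pioglitazone the exact test called 13 and DESeq2 14 other mitosis genes higher, with 26.6% and 27.4% of all genes. With PPFP replicates 2 and 3 with pioglitazone summed, the counts with pioglitazone were 5 and 4, 5 and 0, and 0 and 2, with 42.4% of all genes called.

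Cdc7, the kinase that fires origins, was the outlier of these lists. It held 314 to 514 counts in EV libraries and 1, 1 and 1 in PPFP libraries without pioglitazone, a ratio of EV to PPFP cells of 380 (95% interval 130 to 1840, counting error only). With pioglitazone it held 294 to 603 counts in EV libraries and 0, 0 and 3 in PPFP libraries, a ratio of 402 (137 to 1950). Dbf4, which activates Cdc7, rose with pioglitazone in PPFP cells by 0.51 in the blocked fit (SE 0.05, adjusted p = 1.22e-09). Pold2, a subunit of DNA polymerase delta, was lower in PPFP cells (-0.98, SE 0.16, adjusted p = 0.00211, and -0.90, SE 0.16, adjusted p = 0.00289, without and with pioglitazone). Prim1, the primase, was higher (0.89, adjusted p = 0.00595, and 1.14, adjusted p = 0.0023).

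In the wider mitosis list Gtse1 was higher in PPFP cells (1.45, adjusted p = 0.0028, and 1.69, adjusted p = 0.00123), as were Troap (1.63, adjusted p = 0.00618, and 1.82, adjusted p = 0.00828) and, with pioglitazone, the hyaluronan receptor gene Hmmr (0.97, adjusted p = 0.00939). Racgap1, of the cytokinesis machinery, lay just under the threshold without pioglitazone (0.85, adjusted p = 0.0497), and 2 genes of the list in place of 3 were called under 9 of 14 alternatives. Among the E2F partners and pocket proteins Tfdp2 was lower (-0.38, adjusted p = 0.0173, and -0.74, adjusted p = 0.00168), and with pioglitazone Rbl2, which encodes the pocket protein p130, was lower (-0.49, adjusted p = 0.00506) and E2f4, its usual partner, higher (0.22, adjusted p = 0.0293). This call of E2f4 was lost with the replicate block.

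In the response of PPFP cells to pioglitazone 1 of 38 other S phase genes (Orc2, 0.26, adjusted p = 0.0365), 0 of 45 other mitosis genes and 1 of 10 E2F and pocket protein genes (E2f4, 0.24, adjusted p = 0.0396) were called, against 14.8% of all genes. With the block it was 16 higher and 2 lower, 42 higher and 0 lower, and 3 higher and 2 lower, where 51.6% of all genes were called and 27.7% called higher. With number 2 left out of both groups it was 13 and 3, 36 and 0, and 3 and 2, with 46% of all genes called. With number 3 left out it was 12 and 1, 39 and 0, and 3 and 2, with 41.3%. With PPFP replicates 2 and 3 summed and no block 0 genes of these lists were called. The cyclin F gene Ccnf rose by 0.50 (SE 0.04, block adjusted p = 1.43e-09) and Rbl2 fell by 0.39 (SE 0.05, block adjusted p = 2.21e-07). In EV cells 0 genes of these lists were called in either fit. Without the block the unadjusted p was under 0.05 for 0 genes of these lists, against 16 of all 10146 genes. With it the unadjusted p was under 0.05 for 14 of 39 other S phase and 14 of 45 other mitosis genes, against 605 of all 10146.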

How the data were processed

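RNA-seq was measured in 12 libraries, 3 in each of 4 groups taken from the labels. The authors sequenced TruSeq libraries, aligned the reads to rn4 with TopHat2 2.0.11 and counted reads per gene with HTSeq 0.6.1p1 in the intersection-strict mode. The deposited values are these counts, without normalization. The submitters' processing notes also name CASAVA 1.8.2 and edgeR 3.2.4. Of the 16816 rows, 3447 had no count in any library. The peak lists of the fusion protein have rn4 positions and were not used here.

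Members and lists were chosen with earlier results of these data known. Counts were filtered with filterByExpr (minimum count 10), scaled by TMM and tested in R 4.3.3 with edgeR 4.0.16 on the 6 libraries of the 2 groups compared, over all genes. CPM used TMM factors over 12 libraries, and log2 CPM a prior count of 2. The method was tested on simulated data. A marker of the thyroid list is not reported here. Alternatives were edgeR's exact test, DESeq2 1.42.0, RLE size factors, library size alone, no or a stricter count filter, 1 fit of all 12 libraries, the lists without Ccna2 and Cdk2, a replicate block and each library left out in turn. The block with 1 number or 1 pair left out and the sum of PPFP replicates 2 and 3 with pioglitazone were chosen after seeing the data.

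The labels number the replicates, and the study's methods state 3 independent experiments whose samples shared lanes, so experiment and lane cannot be told apart. With and without pioglitazone, deviations of same-numbered libraries from their group means correlated at 0.82, 0.57 and 0.57 in PPFP cells and at 0.61, 0.79 and 0.83 in EV cells, and the numbers were taken as pairs within each line. A differently numbered pair of PPFP libraries reached 0.63, so the correlations do not settle the numbers of PPFP replicates 2 and 3. The p-values measure the spread between these experiments on 1 line each.

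Named with full statistics were, in each comparison and phase, the called members (at most 5 by p), the members with the highest and the lowest fold change, and Ccnb1 and Cdk1. Values in every library were given for these and for E2f1, Mcm2, Top2a and Mki67. From the wider lists, up to 3 called genes with the smallest p were named. Other genes with values, such as Rfc3, Mcm4 without pioglitazone, Aurka, Mad2l1 and the neighbours of Cdk2, were chosen after their values were seen. Promoters were printed for the 2 members of each phase with the largest SD of log2 CPM among those with a match wholly before the start, and the single CHR match of Ttk, which had a larger SD, lies after it. Figures were drawn in Python 3.11.15 with matplotlib 3.10.9.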

Additional observations from a re-analysis of the deposited data

Results flagged for a closer look

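The S phase level, the median over the members, moved in opposite directions with pioglitazone in the 2 lines, and the mitosis level did not in every pair. The S phase level rose in 3 of 3 pairs of PPFP cells and fell in 3 of 3 pairs of EV cells, with a mean difference between the lines of 0.277 on the log2 scale, and this difference of levels was not tested. The mitosis level rose in 3 of 3 pairs of PPFP cells, and in EV cells it rose by 1.73% in pair 1 and fell in the others. In fits without the block Cdc6, Gins2, Ccne1, Cdc25c and Kif20a had log2 fold changes below 0 in both lines. In the interaction test with the replicate number as a block within each line, the response differed for 18 S phase and 16 mitosis members, with 34.3% of all genes called and 17.2% called in that direction. Among the named genes it differed by 0.81 for Cdk2, 0.64 for Ttk, 0.45 for Cdk1, 0.43 for Rrm2 and 0.35 for Ccnb1 (log2, PPFP minus EV). Without the block none of these differences passed the threshold. The fall in EV cells was largest in pair 2, at -20.1% for the S phase and -25.9% for the mitosis level, and without that pair the response differed for 17 S phase and 15 mitosis members and 32.8% of all genes. It differed for 13 and 7 members and 26.1% of all genes without PPFP pair 2, and for 16 and 10 members and 27.6% without PPFP pair 3.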

How the results depend on the processing

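Medians of the lists moved by less than the SD between replicates under every alternative run, but this SD was wide: leaving out 1 library turned the sign of the mitosis median for PPFP versus EV cells without pioglitazone (to -0.04 at the lowest) and of both medians in the response of PPFP cells (to -0.08 and -0.05) and of EV cells (to 0.16 and 0.27). For PPFP versus EV cells without pioglitazone the replicate block gave 7 S phase and 1 mitosis members, adding Mcm4 (adjusted p = 0.0178), Mcm7, Rfc3 and Kif20a (0.94, adjusted p = 0.0427), and leaving out 1 library gave 1 to 9 and 0 to 3. With pioglitazone the block and DESeq2 each gave 10 and 3 (with the block Mcm7, adjusted p = 0.0431, and Aurka, adjusted p = 0.0413, among them, but not Gins2, adjusted p = 0.0589), the exact test gave 3 mitosis members, and leaving out 1 library gave 3 to 13 and 0 to 11. Between the lines same-numbered libraries did not pair (correlations of -0.27, 0.35 and -0.34 without and -0.26, 0.26 and -0.41 with pioglitazone), and with the block 39.5% of all genes were called without and 44.2% with pioglitazone.

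For the response of PPFP cells the exact test and DESeq2 gave 1 S phase member, with 16.2% and 20% of all genes called. The block gave 16 and 17 (S phase and mitosis), with 51.6%. The block with number 1, 2 or 3 left out gave 17, 11 and 14 for S phase and 18, 16 and 15 for mitosis. In these fits 47.6%, 46% and 41.3% of all genes were called. Leaving out 1 library gave 0 to 1 for both lists. The block within each line gave 18 and 16 members for the difference in response, with 34.3% of all genes called. Without EV pair 1, 2 or 3 it gave 18 and 18, 17 and 15, and 19 and 17, with 28.4%, 32.8% and 28.5% of all genes. Without PPFP pair 1, 2 or 3 it gave 18 and 17, 13 and 7, and 16 and 10, with 30.4%, 26.1% and 27.6%. The counts for EV cells were 0 under every alternative run.

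Directions turned for genes that were not called in fits without the block. Leaving out 1 library gave -0.53 to 0.11 for Cdc25b with pioglitazone. In the response of PPFP cells it gave -0.34 to 0.28 for Kif20a, which was 0.0594 with PPFP replicates 2 and 3 summed, -0.26 to 0.73 for Ccnb1 and -0.14 to 0.64 for Cdk1. In the response of EV cells it gave -0.0494 to 0.0562 for Gins2, which was 7e-04 under library size alone, -0.62 to 0.18 for Rrm2, -0.24 to 0.16 for Cdc25c, -0.67 to 0.26 for Cdk1 and -0.67 to 0.44 for Ccnb1. With PPFP replicates 2 and 3 summed, Gins2 (0.29) was no longer called with pioglitazone. The cause of these changes was not tested. The lowest count of a member was 226, and how much of each standard error was counting error was not tested.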
